A study of Mus musculus with 12 samples.

Results

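Tumor and adjacent cerebellum were compared within the same mouse in 3 mice, GB344, GB359 and GB370, which gave 6 of the 12 RNA samples of the series. The members are the 3 medulloblastomas and the 3 pieces of cerebellum dissected beside them, and they were paired by the mouse number that both samples carry. The study asked what kind of DNA damage needs BRCA2 if medulloblastoma is to be prevented, with a BRCA2 that lacks its PALB2-binding domain, and it measured poly(A) RNA of tumors and cerebella by sequencing. All 6 members carry the genotype *Brca2*-mut;*Trp53*-mut. *Brca2*-mut stands for Brca2Δex3-4, in which Cre driven by the human GFAP promoter deletes *Brca2* exons 3 and 4 while the central nervous system develops, so cells of the adjacent cerebellum that descend from Cre-expressing progenitors carry the deletion too. *Trp53*-mut stands for a global knockout allele in which a neo cassette replaces exons 2 to 6, so it is present in every cell of these animals, blood and vessels included. The labels name no agent. The other 6 samples are tumor-free cerebella, 3 labelled *Brca2*-mut;*Trp53*-WT (GB361, GB508 and GB512) and 3 labelled *Brca2*-WT;*Trp53*-mut (GB517, GB519 and GB520), and they serve here as a reference level. Tumor-bearing mice were killed at humane endpoints, the controls are described as adult and age-matched, and no individual age is given in the sources used here. No control combines both mutations without a tumor, so genotype, age and the presence of a tumor cannot be told apart where adjacent tissue is set against controls.

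Medulloblastoma of the Sonic hedgehog subgroup arises from granule cell progenitors, which divide in the outer layer of the developing cerebellum while Purkinje cells supply the ligand SHH. The ligand relieves the block that the receptor PTCH1 places on SMO, and the GLI transcription factors then switch on genes such as those for N-MYC and cyclin D2. In the adult cerebellum the progenitors are gone, and granule neurons, Purkinje cells, inhibitory interneurons, Bergmann glia and oligodendrocytes make up the tissue.

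Expression is given in TPM, which corrects each gene for the length of its transcripts and brings every sample to one total. Read depth is unknown, because TPM keeps no counts. Between 15088 and 15803 genes reached 1 TPM in a sample, and the small RNA gene *Mir6236* took 4.25% to 11.5% of all TPM. The labelled tissues could be checked against their markers. The 22 granule neuron markers summed to 4857, 6748 and 6244 TPM in the adjacent samples of GB344, GB359 and GB370 and to 6238 to 7741 TPM in controls, and to 471, 1172 and 1063 TPM in the tumors. Among controls, GB512 stood apart with 257 TPM in the 42 genes of G2 and mitosis, where the other 5 held 92.9 to 113. The knocked-out alleles cannot be checked at the gene level, since exons outside the deletions still yield reads. *Brca2* was at 8.22, 14.6 and 10.9 TPM in the tumors, 6.55, 6.98 and 4.52 in the adjacent samples and 3.24 to 4.40 in controls. *Trp53* was at 128, 124 and 130.5 TPM in the tumors, at 85.02, 70.5 and 66.1 in the adjacent samples and at 33.1 to 49.4 in controls.

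Within the mouse, more genes were called lower in tumor than higher. Of 15845 genes tested, 701 (4.42%) were called higher in tumor and 2841 (17.9%) lower, where a call required a limma adjusted p under 0.01 and a change of at least 1 on the log2(TPM + 1) scale in a fit with the mouse as a block. The median difference over all tested genes, tumor minus adjacent, was -0.14 on that scale. With median-of-ratios scaling the split was 1196 higher and 2419 lower, so that the share of higher genes among calls went from 19.8% to 33.1%, and with quantile normalization it was 1545 and 2162, or 41.7%. These scalings moved the median gene to 0.02 and 0.12. Leaving out GB359 brought the higher count to 33 and the lower count to 1196, and leaving out GB344 brought them to 368 and 1882. Of the 88 called genes whose fold changes are given for this comparison, 53 were no longer called without GB359, 23 without GB344 and 11 without GB370.

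Counts of called genes in the lists below are to be read against those shares, 4.42% higher and 17.9% lower, also where they are not repeated. A gene was higher in tumor in all 3 mice for 30.2% of tested genes, and lower in all 3 for 44.6%. An unadjusted limma p under 0.05 was reached by 9291 of the 15845 tested genes. Fold changes are on the log2(TPM + 1) scale, which understates the change of genes near 0. In bulk tissue, fewer cells of a type and less RNA per cell cannot be told apart.

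**Figure D1:**
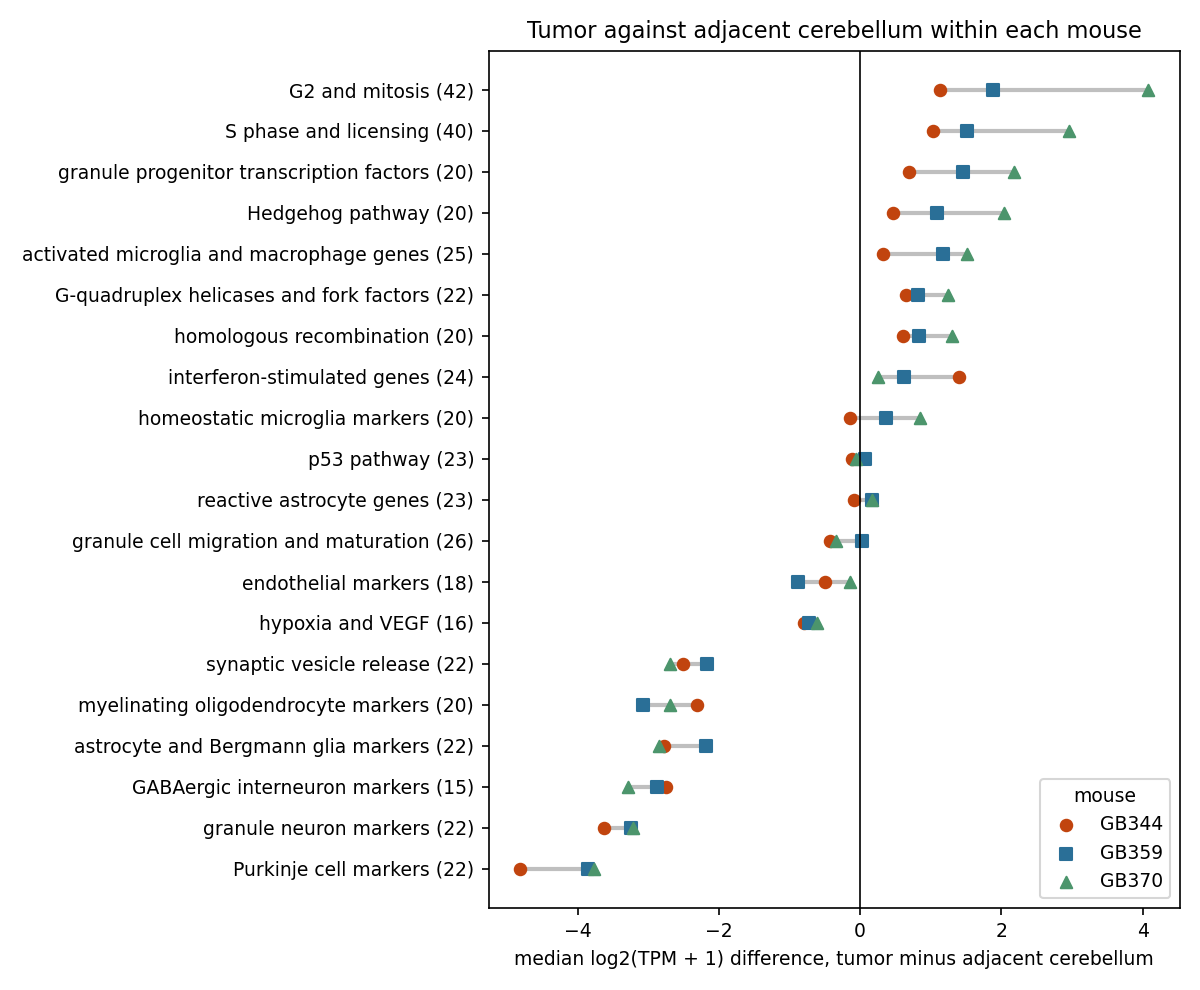
Median difference in log2(TPM + 1), tumor minus adjacent cerebellum, for 20 gene lists (rows, with the number of tested genes), with 1 point per mouse and a bar from the lowest to the highest mouse. The lists of mature neurons, synapses, astrocytes and myelin lie between -4.81 and -2.17 in every mouse, while the G2 and mitosis list spreads from 1.13 in GB344 to 4.08 in GB370.

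Few genes of the Hedgehog pathway were called. Of the 20 genes tested, 2 were called higher (*Mycn* and *Smo*) and 2 lower (*Shh* and *Cdon*), which became 1 and 0 without GB359. Over all tested genes, 4.42% were called higher and 17.9% lower, and on 20 genes neither count stood clear of these shares. The median difference was 1.11, with medians of 0.46, 1.08 and 2.03 in GB344, GB359 and GB370. *Shh*, the ligand, was at 0.672, 0.820 and 0.766 TPM in the tumors against 5.71, 6.37 and 5.83 in the adjacent samples (log2 fold change -1.99, SE 0.16, limma adjusted p = 0.00108). Controls held 5.94 to 12.98 TPM, so the adjacent values lay near the lowest control. *Cdon*, a co-receptor for the ligand, stood at 1.33, 2.41 and 2.36 TPM in tumor and 7.20, 18.5 and 12.9 in adjacent tissue (log2 fold change -2.12, SE 0.21, limma adjusted p = 0.00173).

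*Smo*, the transducer that PTCH1 holds in check, was at 64.3, 101 and 85.9 TPM in tumor and 34.5, 27.1 and 16.8 in adjacent tissue (log2 fold change 1.67, SE 0.29, limma adjusted p = 0.00854), and each tumor was above each adjacent sample. *Ptch1*, itself a target of the pathway, did not separate the tissues, with 146, 237 and 303 TPM in the tumors and 199, 172 and 194 beside them (log2 fold change 0.22, SE 0.24, limma adjusted p = 0.476). In GB344 the tumor held less of it than the adjacent sample. The paper reports that each tumor genome it sequenced from this model had lost a copy of *Ptch1* and had the remaining allele inactivated. The state of the gene in the tumors compared here was not tested, and TPM do not separate mutated from intact transcripts.

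*Mycn*, which encodes N-MYC and lies on chromosome 12, rose in all 3 mice. The tumors held 1133, 356 and 344 TPM, the adjacent samples 126, 79.8 and 10.9 and the controls 3.49 to 6.67. Tumor exceeded adjacent tissue 9.02, 4.46 and 31.5 times in GB344, GB359 and GB370 (log2 fold change 3.39, SE 0.51, limma adjusted p = 0.00587). *Gli1*, the transcription factor whose level is the usual readout of the pathway, was at 142, 193 and 252 TPM in tumor and 67.2, 61.01 and 24.2 TPM beside it. All tumors were above all adjacent samples, yet the within-mouse difference ran from 1.07 in GB344 to 3.33 in GB370 and the call was missed (log2 fold change 2.01, SE 0.44, limma adjusted p = 0.0170). *Gli2* (log2 fold change 1.85, limma adjusted p = 0.0419) and *Ccnd2*, the cyclin D2 gene (2.45, limma adjusted p = 0.0626), had the same pattern. *Ccnd2* was nearly as high in the adjacent sample of GB344 as in its tumor, at 224 against 254 TPM, but 22.4 against 659.6 TPM in GB370.

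Transcription factors of granule cell progenitors had small differences in GB344 and large ones in GB370. Of 20 tested, 1 was called higher, *Sox4*, a factor of immature neurons, and 1 lower. That was near the 4.42% called higher over all tested genes and below the 17.9% called lower. The higher count was 3 without GB344, 0 without GB359 and 5 without GB370, and the lower call was lost without any 1 of the mice. The list had a median of 1.41 and medians of 0.69, 1.45 and 2.17 in the 3 mice. *Atoh1*, the factor that defines the progenitors, was at 119, 244 and 319 TPM in tumor, 59.4, 50.5 and 4.997 in adjacent tissue and at most 0.212 in controls. The gap was narrow in GB344 and wide in GB370. The difference was not called (log2 fold change 2.99, SE 0.90, limma adjusted p = 0.0425). *Insm1* and *Nhlh1*, factors of newly formed neurons, had differences of 2.75 and 2.65 that were likewise not called (limma adjusted p = 0.0307 and 0.0233).

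*Zic1*, a factor that granule cells keep as they mature, was at 454, 638 and 671 TPM in tumor and 641, 638 and 614 in adjacent tissue, which overlap. *Otx2*, a factor of the posterior cerebellum, stood apart in 1 tumor. The tumor of GB344 held 0.323 TPM of it, while the tumors of GB359 and GB370 held 28.0 and 34.3 and the adjacent samples 34.7, 22.3 and 30.97.

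Genes of granule cell migration and maturation went both ways. Of 26 tested, 1 was called higher, *Nfib* (log2 fold change 1.62, SE 0.22, limma adjusted p = 0.00434), a factor of granule cell development, and 10 lower, counts that became 4 and 5 without GB344, 0 and 1 without GB359 and 2 and 7 without GB370. Among the latter, *Etv1*, a factor of maturing granule cells, was at 12.9, 21.9 and 26.1 TPM in tumor and 176, 161 and 204 in adjacent tissue (log2 fold change -3.14, SE 0.20, limma adjusted p = 0.000739), and *Neurod2*, a factor of maturing neurons, was at 36.5, 21.2 and 19.1 and 120.1, 125 and 159 TPM (log2 fold change -2.39, SE 0.27, limma adjusted p = 0.00249). *Neurod1*, which acts as progenitors leave the cycle, did not differ in a fixed direction, at 262, 533 and 391 TPM in tumor and 393, 416 and 321 beside it. *Dcx*, a marker of migrating young neurons, was higher in each tumor (61.6, 110.0 and 60.4 against 33.1, 19.4 and 5.91 TPM) without passing the threshold (log2 fold change 2.16, limma adjusted p = 0.0139).

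Genes of the dividing cell had the widest gap between mice among the lists. All 42 genes of the G2 and mitosis list were higher in tumor in all 3 mice, where 30.2% of tested genes were, and 34, 41 and 42 of them were higher by at least 1 in GB344, GB359 and GB370. Their summed level was nearly equal in the tumors, at 3150.5, 3085 and 3241 TPM, but 1383, 821 and 164 TPM in the adjacent samples, and 92.9 to 257 TPM in controls. The list median was therefore 1.13, 1.89 and 4.08 in the 3 mice. No member was called by limma, although 41 of the 42 had an unadjusted p under 0.05 and 41 an adjusted p under 0.05. Without GB370 21 were called, without GB344 1 and without GB359 0, and 39 were called in the fit of all 12 samples with the mouse as a random effect.

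*Top2a*, the topoisomerase that untangles replicated chromosomes, was at 210.4, 215 and 193 TPM in tumor and 89.8, 49.5 and 5.53 in adjacent tissue (log2 fold change 2.74, SE 0.71, limma adjusted p = 0.0273). *Mki67*, which codes for the proliferation antigen Ki-67, stood at 119, 140.3 and 79.6 TPM against 58.4, 33.3 and 2.72, and *Cdk1*, the mitotic kinase, at 66.3, 56.8 and 75.6 against 22.98, 14.8 and 1.79. Tumor values of the 3 genes varied by less than 2-fold between mice, and adjacent values by more than 10-fold. In GB370 the adjacent sample lay below the control GB512 for *Top2a*, at 5.53 against 8.42 TPM.

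Genes of this list move together through the cell cycle, and their promoters are known for 2 short elements, the cell cycle homology element read by the DREAM and B-MYB complexes and the CCAAT box read by NF-Y. Promoters of 4 members are printed because these letters are frequent in the list, as counted after them, and because its difference between the mice is the widest. They come from RefSeq on build GRCm38.p6, minus strand, 5′ to 3′, with 250 bases before and 50 after the annotated start, at chr11:99024140-99024439 for *Top2a*, chr10:69352863-69353162 for *Cdk1*, chr7:135716330-135716629 for *Mki67* and chr13:100786437-100786736 for *Ccnb1*, the cyclin B1 gene, whose window holds CCAAT and no TTTGAA. Capitals mark TTTGAA, the core of the first element, and CCAAT, each on either strand (TTCAAA and ATTGG on the other).
Top2a: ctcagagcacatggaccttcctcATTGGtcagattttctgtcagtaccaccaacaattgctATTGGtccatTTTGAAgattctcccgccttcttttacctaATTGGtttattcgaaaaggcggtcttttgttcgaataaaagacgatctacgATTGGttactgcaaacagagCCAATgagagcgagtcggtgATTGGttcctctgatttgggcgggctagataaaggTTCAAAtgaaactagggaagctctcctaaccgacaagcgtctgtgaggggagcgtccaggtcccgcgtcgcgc
Cdk1: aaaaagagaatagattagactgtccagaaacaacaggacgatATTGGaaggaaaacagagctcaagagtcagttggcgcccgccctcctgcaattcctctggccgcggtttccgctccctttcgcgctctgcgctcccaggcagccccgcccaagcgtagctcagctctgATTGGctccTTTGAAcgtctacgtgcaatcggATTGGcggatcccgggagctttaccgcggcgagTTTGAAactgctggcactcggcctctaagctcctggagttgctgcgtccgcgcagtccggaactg
Mki67: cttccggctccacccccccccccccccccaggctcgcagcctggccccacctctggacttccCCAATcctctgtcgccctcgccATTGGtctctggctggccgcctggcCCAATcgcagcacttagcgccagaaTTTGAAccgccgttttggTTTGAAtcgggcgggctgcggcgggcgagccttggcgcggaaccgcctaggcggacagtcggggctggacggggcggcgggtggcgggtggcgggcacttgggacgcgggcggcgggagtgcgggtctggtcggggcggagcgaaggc
Ccnb1: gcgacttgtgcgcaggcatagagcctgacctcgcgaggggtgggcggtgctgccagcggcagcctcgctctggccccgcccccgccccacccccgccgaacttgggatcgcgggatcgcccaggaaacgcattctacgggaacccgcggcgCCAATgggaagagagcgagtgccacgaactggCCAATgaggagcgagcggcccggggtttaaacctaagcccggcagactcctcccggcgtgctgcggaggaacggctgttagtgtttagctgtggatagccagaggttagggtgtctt
For contrast, the promoter of *Gabra6*, a granule neuron gene that fell, lies at chr11:42321023-42321322 on the same strand and holds 1 CCAAT and no TTTGAA.
Gabra6: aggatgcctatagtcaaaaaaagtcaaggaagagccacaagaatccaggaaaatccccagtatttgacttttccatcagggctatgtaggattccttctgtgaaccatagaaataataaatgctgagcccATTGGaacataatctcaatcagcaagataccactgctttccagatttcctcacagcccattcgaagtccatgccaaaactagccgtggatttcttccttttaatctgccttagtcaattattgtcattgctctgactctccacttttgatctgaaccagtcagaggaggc

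A promoter was matched for 34 of the 42 genes, 37 promoters in all. TTTGAA occurred in 27 of the 37 (73.0%) and in 17.9% of all 32841 mouse promoters of the same length, and CCAAT in 31 (83.8%) against 37.4%. Both occurred in 24 (64.9%) against 6.95%. For the S phase list the shares were 22.9% and 57.1% of 35 promoters, and for granule neuron markers 18.8% and 31.3% of 16. The GLI motif GACCACCCA occurred in 0 of 15 promoters of the Hedgehog pathway list and in 0.253% of all promoters. These are counts of letters in a window and not of bound sites.

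S phase and origin licensing genes had smaller differences, and more of them were called. All 40 were higher in tumor in each mouse, 10 of them were called, and the median was 1.81, with 1.03, 1.51 and 2.96 in the 3 mice. *Pcna*, the sliding clamp of the replicative polymerases, was at 517, 564 and 649 TPM in tumor and 239.6, 204 and 103 in adjacent tissue (log2 fold change 1.74, SE 0.31, limma adjusted p = 0.00995). *Mcm7*, a subunit of the replicative helicase, was at 264, 316 and 277 and 107, 101 and 31.6 TPM (log2 fold change 2.01, SE 0.36, limma adjusted p = 0.00996). *Mcm10*, which helps to start replication at origins, rose from 15.8, 12.4 and 3.39 to 41.6, 45.01 and 28.2 TPM (log2 fold change 1.95, SE 0.29, limma adjusted p = 0.00587). The count of 10 rested on the mice used, being 18 without GB370, 2 without GB344 and 0 without GB359.

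Helicases that act on G-quadruplexes and proteins of the stalled fork had 3 called rises among 22 genes (0 without GB359 and 0 without GB370), with a median of 0.88. Over all tested genes, 4.42% were called higher. *Dna2*, a nuclease and helicase, was at 23.8, 18.6 and 20.2 TPM in tumor and 10.7, 6.87 and 6.58 in adjacent tissue (log2 fold change 1.30, SE 0.17, limma adjusted p = 0.00380). *Topbp1*, which activates the checkpoint kinase ATR, and *Tipin*, which travels with the fork, had log2 fold changes of 1.42 and 1.09 (limma adjusted p = 0.00524 and 0.00879). *Pif1*, a helicase that unwinds G-quadruplexes, was higher in each tumor, at 29.2, 40.2 and 41.4 TPM against 18.1, 10.3 and 1.25. Its difference was smallest in GB344 and largest in GB370, as for the mitosis genes, and it was not called (log2 fold change 2.25, SE 0.68, limma adjusted p = 0.0420). In the adjacent sample of GB344 it held 18.1 TPM, where the controls held 0 to 1.64. *Blm*, a RecQ helicase, was at 20.5, 23.6 and 20.6 TPM in tumor and 11.97, 11.5 and 6.67 beside it (log2 fold change 1.06, limma adjusted p = 0.0117).

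Homologous recombination genes resembled them, with 2 called rises of 20 (1 without GB344 and 0 without GB359) and a median of 0.86. On 20 genes this count did not stand clear of the 4.42% called higher over all tested genes. *Rad54l*, a motor protein of strand exchange, was at 23.6, 22.2 and 21.9 TPM in tumor and 10.5, 8.64 and 4.45 in adjacent tissue (log2 fold change 1.48, SE 0.24, limma adjusted p = 0.00742). *Polq*, the polymerase of end joining by microhomology, did not separate the tissues, at 13.6, 17.6 and 17.3 TPM in tumor and 15.4, 11.98 and 13.8 beside it (log2 fold change 0.22, SE 0.19, limma adjusted p = 0.387).

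Targets and regulators of p53, whose gene the labels give as *Trp53*-mut in all 6 samples, went both ways. Of 23 tested, 2 were called higher and 4 lower, with a median of 0.08. Over all tested genes, 4.42% were called higher and 17.9% lower, and on 23 genes neither count stood clear of these shares. Without GB359 none of the 23 was called in either direction, and the lower count was 0 without GB344 and 2 without GB370. *Cdkn1a*, the p21 inhibitor of cyclin-dependent kinases, was lower in each tumor, at 14.6, 21.01 and 13.5 TPM against 45.5, 48.9 and 72.1 (log2 fold change -1.70, SE 0.25, limma adjusted p = 0.00542). Controls held 16.7 to 30.3 TPM, so the tumors of GB344 and GB370 were below the lowest control, and every adjacent sample was above every control. *Perp*, *Plk2* and the death receptor gene *Fas* were also called lower, by log2 fold changes of -1.42, -1.35 and -1.20. *Gadd45a*, a stress response gene, was at 96.6, 69.4 and 68.3 TPM in tumor and 33.5, 30.3 and 21.1 in adjacent tissue (log2 fold change 1.44, SE 0.15, limma adjusted p = 0.00203), and *Eda2r*, a receptor of the TNF family, at 9.51, 16.1 and 9.29 and 3.01, 2.83 and 0.447 TPM (log2 fold change 2.13, SE 0.31, limma adjusted p = 0.00528).

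*Cdkn2a*, which encodes the inhibitors p16INK4A and p19ARF, had the largest rise of all called genes that moved the same way in each mouse. It was at 126, 115 and 321 TPM in tumor, 14, 17.3 and 5.36 in adjacent tissue and 0 to 7.74 in controls (log2 fold change 3.80, SE 0.60, limma adjusted p = 0.00676). The tumor exceeded its adjacent tissue 9.02, 6.65 and 59.8 times. The gene's transcripts for both proteins share exons, and the values do not say which was made.

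**Figure D2:**
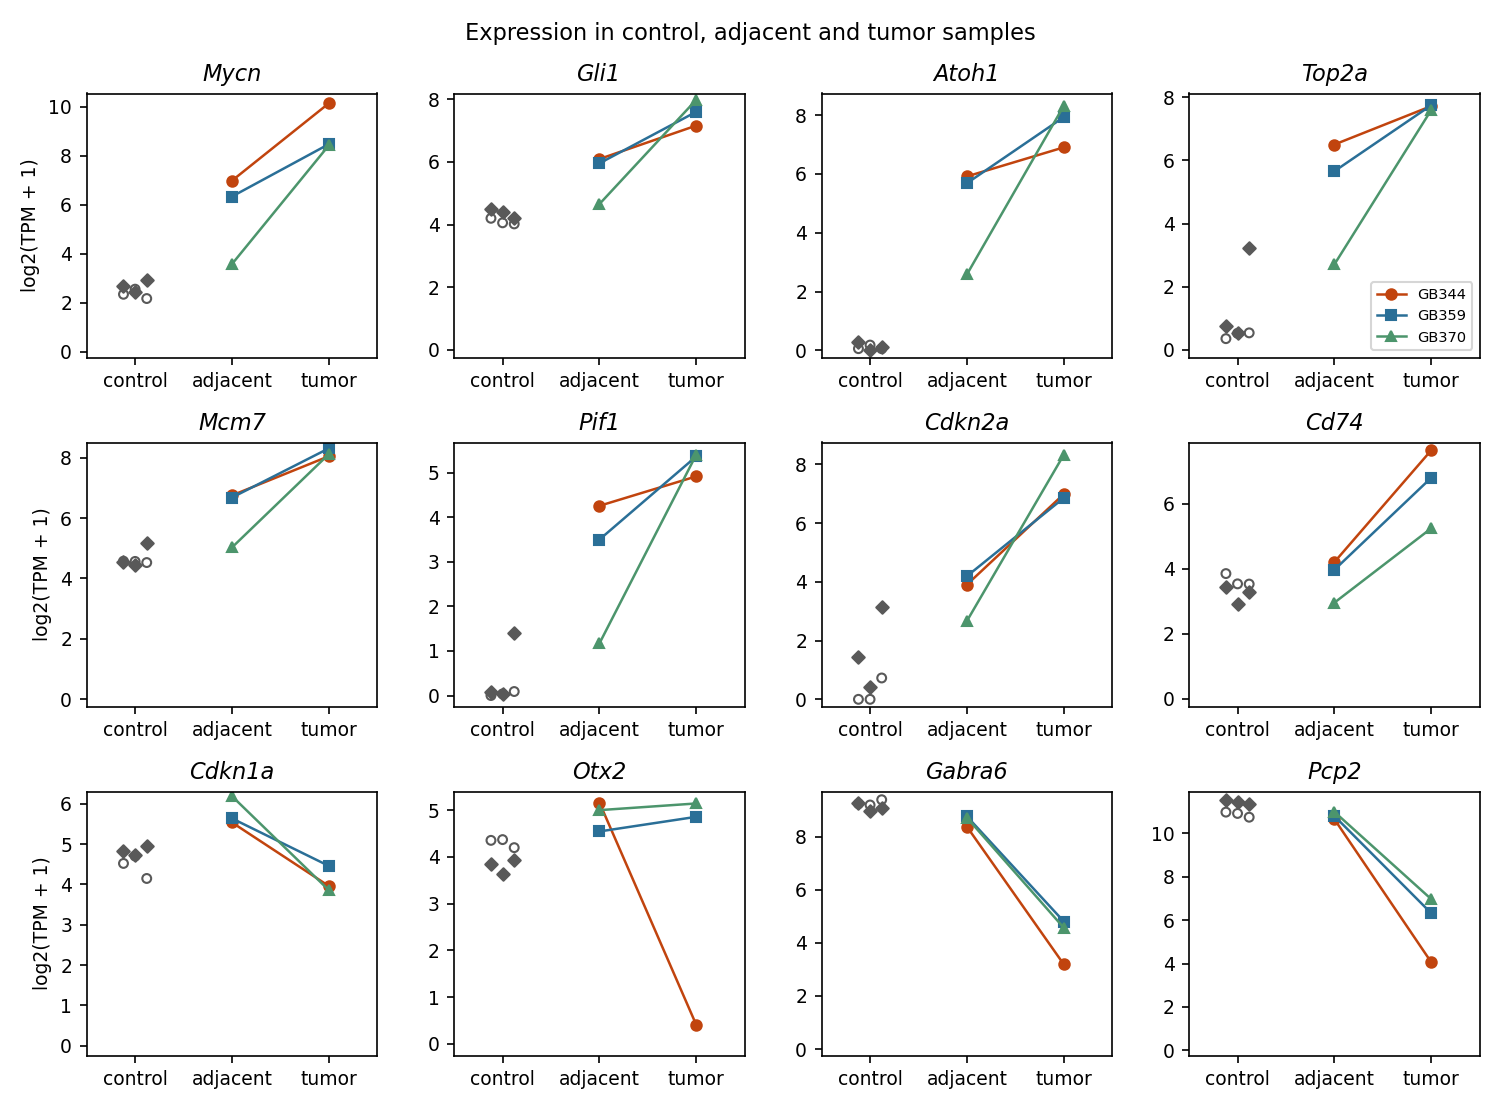
log2(TPM + 1) of 12 genes in the 6 controls (grey, filled diamonds for Brca2-mut;Trp53-WT and open circles for Brca2-WT;Trp53-mut), the adjacent samples and the tumors, with a coloured line joining the 2 samples of a mouse. Lines for Top2a and Pif1 start at different adjacent levels and meet at similar tumor levels, while Atoh1 starts lowest in GB370 and ends lowest in GB344. Cdkn1a is highest in adjacent tissue, and Otx2 falls away in the tumor of GB344 only.

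Markers of the mature cerebellar neurons had the lowest list medians, and these were alike in the 3 mice. Of 22 granule neuron markers, 20 were called lower in tumor, with a median of -3.27 and medians of -3.63, -3.24 and -3.21 by mouse. *Gabra6*, the GABA-A receptor subunit that marks mature granule neurons, was at 8.11, 26.9 and 22.7 TPM in tumor against 331, 433 and 418 in adjacent tissue, 40.8, 16.1 and 18.4 times the tumor level (log2 fold change -4.43, SE 0.27, limma adjusted p = 0.000705). *Slc17a7*, the vesicular glutamate transporter, was at 17.4, 43.2 and 27.1 and 322, 423 and 473 TPM (log2 fold change -3.82, SE 0.21, limma adjusted p = 0.000705), and *Cbln3*, a secreted synapse organizer of granule neurons, at 8.48, 38.6 and 39.4 and 475, 623 and 657 TPM (log2 fold change -4.55, SE 0.36, limma adjusted p = 0.00104). For each of them the tumor of GB344 was the lowest.

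Genes of synaptic vesicle release were called lower in 20 of 22 cases, all but *Stx1a* and *Unc13a*, with a median of -2.39. *Snap25*, a fusion protein of the vesicle, was at 105, 218 and 205 TPM in tumor and 1415, 1619 and 2063 in adjacent tissue (log2 fold change -3.32, SE 0.20, limma adjusted p = 0.000705). *Syt1* and *Syt2*, the calcium sensors of release, had log2 fold changes of -3.88 and -4.41 (limma adjusted p = 0.000705 for both).

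Purkinje cell markers had the lowest median of all lists, -4.08, with 19 of 22 called lower. *Pcp2*, a G protein regulator found in Purkinje cells, was at 15.6, 78.7 and 124 TPM in tumor and 1612, 1786 and 2040.2 in adjacent tissue, 103, 22.7 and 16.4 times as high (log2 fold change -5.04, SE 0.51, limma adjusted p = 0.00193). *Calb1*, the calcium buffer calbindin, was at 6.74, 29.97 and 40.3 and 554, 597 and 722 TPM (log2 fold change -4.85, SE 0.43, limma adjusted p = 0.00132). *Car8* and *Gng13* had log2 fold changes of -4.72 and -5.20 (limma adjusted p = 0.00128 and 0.00237). The summed level in controls differed by genotype, from 9611 to 10594 TPM in *Brca2*-WT;*Trp53*-mut and from 13168 to 15664 TPM in *Brca2*-mut;*Trp53*-WT cerebella, and the adjacent samples held 8484, 9001 and 10476 TPM.

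Of 15 markers of GABAergic interneurons, 14 were called lower, all but *Cort*, with a median of -3.13. *Gad1*, which makes GABA, was at 5.26, 21.5 and 23.4 TPM in tumor and 358, 335 and 528 beside it (log2 fold change -4.73, SE 0.38, limma adjusted p = 0.00107), and *Slc6a5*, the glycine transporter of Golgi cells, at 0.206, 0.409 and 0.483 and 13.6, 18.6 and 16.4 TPM (log2 fold change -3.65, SE 0.17, limma adjusted p = 0.000705). Unipolar brush cell markers were called lower in 6 of the 7 tested. *Eomes*, their transcription factor, varied more among adjacent samples than the other neuronal genes, at 30.9, 8.94 and 43.1 TPM against 3.39, 2.44 and 1.71 in the tumors (log2 fold change -2.80, SE 0.48, limma adjusted p = 0.00845).

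Glial genes were lower as well, though not without exception. Of 22 markers of astrocytes and Bergmann glia, 18 were called lower and 1 higher, with a median of -2.72. *Etnppl*, an astrocyte phospholyase, had the largest fall of all called genes that moved the same way in each mouse, with 0.387, 1.06 and 2.35 TPM in tumor and 75.98, 85.3 and 104 in adjacent tissue (log2 fold change -5.38, SE 0.21, limma adjusted p = 0.000705). *Aldoc*, the aldolase of Purkinje cells and astrocytes, was at 23.5, 71.5 and 111 and 1788, 1477 and 2598 TPM (log2 fold change -5.03, SE 0.39, limma adjusted p = 0.000964). *Slc1a3*, the glutamate transporter GLAST, kept more of its level, at 114, 191 and 127 TPM against 561, 579.6 and 609.8 (log2 fold change -2.05, SE 0.18, limma adjusted p = 0.00140). The 1 higher call, which was 0 without GB359 and 0 without the replicate block, was *Fabp7*, a fatty acid carrier of radial glia and of immature astrocytes, at 245, 375 and 193 TPM against 129, 125 and 77.03 (log2 fold change 1.27, SE 0.17, limma adjusted p = 0.00392).

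Myelin genes were lower in each tumor, from unequal adjacent levels. Of 20 markers of myelinating oligodendrocytes, 15 were called lower, with a median of -2.67. Their sum was 419, 883 and 701 TPM in the tumors, 2481, 5923 and 2981 in adjacent tissue and 4601 to 6788 in controls, so that the adjacent sample of GB359 lay within the controls and those of GB344 and GB370 below them. *Mbp*, myelin basic protein, was at 50.9, 184 and 115 TPM in tumor and 908, 2791 and 1109 beside it (log2 fold change -3.77, SE 0.20, limma adjusted p = 0.000705). In the progenitors of this lineage *Olig2*, a factor also made in some medulloblastomas, was called higher at 64.1, 73.1 and 85.6 against 23.5, 33.4 and 18.04 TPM (log2 fold change 1.57, SE 0.24, limma adjusted p = 0.00581), while *Enpp6* and *Tnr* were called lower, by log2 fold changes of -1.48 and -2.30. These were the 1 higher and 2 lower calls among 12 progenitor markers tested, and without GB359 they were 0 and 1. On 12 genes neither count stood clear of the 4.42% called higher and 17.9% called lower over all tested genes. *Pdgfra*, the receptor that marks these progenitors, was higher in each tumor, at 53.3, 172 and 193 against 29.95, 33.9 and 14.2 TPM, and missed the threshold (log2 fold change 2.26, limma adjusted p = 0.0207).

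Genes of antigen presentation by MHC class II rose in each tumor. Of 25 genes of activated microglia and macrophages, 8 were called higher and none lower by limma, with a median of 0.99. Without GB359 the 8 calls were 0. Of the 25, 15 were higher in tumor in all 3 mice and 4 were lower. At a limma adjusted p under 0.05 with no minimum change, 11 were higher and 4 lower. In GB344, GB359 and GB370 the list summed to 3410, 4506 and 2510 TPM in tumor and 3770, 4131 and 3684 in adjacent tissue. The sum was thus lower in tumor in GB344 and GB370. *Cd74*, the invariant chain, was at 201, 111 and 37.03 TPM in tumor, 17.5, 14.7 and 6.76 in adjacent tissue and 6.53 to 13.4 in controls (log2 fold change 2.86, SE 0.24, limma adjusted p = 0.00122). The class II chains *H2-Aa*, *H2-Ab1* and *H2-Eb1* rose by 3.06, 2.78 and 2.91 on the log2 scale (limma adjusted p = 0.00108, 0.00490 and 0.00199). In each of them the tumor of GB344 was highest and that of GB370 lowest, and the adjacent range overlapped that of the controls in all 4 genes. *Lyz2*, lysozyme of myeloid cells, was at 140.0, 189.6 and 99.5 TPM in tumor and 47.9, 34.6 and 19.9 beside it (log2 fold change 2.07, SE 0.21, limma adjusted p = 0.00186).

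The 20 markers of homeostatic microglia held no call by limma, with 9 at an unadjusted p under 0.05. That was a smaller share than the 9291 of 15845 over all tested genes. The list median was 0.52, with medians of -0.15, 0.37 and 0.85 in GB344, GB359 and GB370, and 13 of the 20 differences were positive. The list summed to 663, 1130 and 779 TPM in tumor and 681, 659 and 331 in adjacent tissue. *P2ry12*, the receptor of resting microglia, went against the median, at 2.26, 7.62 and 3.34 TPM in tumor and 6.08, 8.06 and 5.69 in adjacent tissue (log2 fold change -0.61, SE 0.25, limma adjusted p = 0.0981). Of 19 markers of lymphocytes and neutrophils, 6 passed the filter and none was called by limma. An unadjusted p under 0.05 was found for 2 of these markers, also a smaller share than over all tested genes. The 17 markers of this list that the data hold, with those below the filter, summed to 40.9, 51.6 and 56.8 TPM in tumor. Their sum was 26.3, 26.2 and 27.6 TPM in adjacent tissue and 11.1 to 18.7 in controls.

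Interferon-stimulated genes set GB344 apart. They summed to 1629.6, 656 and 413 TPM in the tumors, 649.8, 469 and 418 in the adjacent samples and 209 to 613 in controls, and the median difference was 1.41, 0.62 and 0.25 in GB344, GB359 and GB370. *Isg15*, a ubiquitin-like protein induced by interferon, was at 236, 28.5 and 16.9 TPM in tumor and 27.6, 13.6 and 14.6 beside it (log2 fold change 1.42, SE 0.55, limma adjusted p = 0.0840). None of the 24 was called higher by limma, with 14 at an unadjusted p under 0.05, and 1 was called lower, *Stat2* (log2 fold change -1.52, SE 0.17, limma adjusted p = 0.00242), part of the factor that carries the interferon signal. Without GB359 that lower call was 0, and without GB370 2 members were called higher. The 14 of 24 with an unadjusted limma p under 0.05 were near the share over all tested genes, 9291 of 15845. The highest control was GB512, whose sum of 613 TPM was above that of the tumor of GB370.

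Genes of the vessels went both ways. Of 18 endothelial markers, 6 were called lower (1 without GB359) and none higher, where 17.9% of all tested genes were called lower. The 6 included *Slc2a1* and *Abcb1a*, the glucose transporter and an efflux pump of the blood-brain barrier (-1.59 and -1.90 on the log2 scale), and *Plvap* (-2.42). *Cldn5*, the tight junction protein, was at 57.5, 60.9 and 84.3 TPM in tumor and 46.3, 67.1 and 49.7 in adjacent tissue (log2 fold change 0.31, SE 0.20, limma adjusted p = 0.247). Among 20 mural and fibroblast markers, the basement membrane collagens *Col4a1* and *Col4a2* were called higher, *Col4a1* at 76.9, 40.7 and 67.4 TPM against 18.6, 16.03 and 13.9 (log2 fold change 1.83, SE 0.21, limma adjusted p = 0.00290), and 5 were called lower. Leaving out GB344, GB359 or GB370 changed these 2 higher and 5 lower calls to 0 and 2, 1 and 1, and 1 and 2. *Slc6a20a*, a transporter of meningeal and mural cells, was among the 5 lower calls (log2 fold change -2.95, SE 0.18, limma adjusted p = 0.000705). On 20 genes neither count stood clear of the 4.42% called higher and 17.9% called lower over all tested genes.

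Hypoxia and VEGF genes did not rise together. Of 16, 7 were called lower (2 without GB359) and 1 higher (0 without GB344 and 0 without GB359), beside 17.9% and 4.42% of all tested genes. *Vegfa*, the growth factor of vessels, was at 44.2, 53.2 and 52.7 TPM in tumor and 114, 107 and 175 beside it (log2 fold change -1.35, SE 0.17, limma adjusted p = 0.00368). *Car9*, a carbonic anhydrase induced by low oxygen, was at 0.878, 1.21 and 1.38 and 9.74, 11.8 and 11.7 TPM (log2 fold change -2.49, SE 0.16, limma adjusted p = 0.000742). The exception was *Ldha*, lactate dehydrogenase A, at 700.5, 294 and 418 TPM in tumor and 248, 167 and 201 in adjacent tissue (log2 fold change 1.12, SE 0.17, limma adjusted p = 0.00633), while *Aldoa*, a glycolytic aldolase, fell (-1.88, limma adjusted p = 0.00136).

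The remaining lists bear on dissection. Of 15 immediate early genes, which respond to activity and to handling of tissue, 6 were called lower (3 without GB344 and 1 without GB359), among them *Fos* at 5.74, 9.16 and 6.30 TPM in tumor against 22.2, 51.7 and 43.8 (log2 fold change -2.26, SE 0.21, limma adjusted p = 0.00156). The 3 erythroid transcripts that were tested had no call by limma and an unadjusted p under 0.05 in all 3, with sums of 98.1, 251 and 720.5 TPM in tumor and 795, 1399 and 1093 in adjacent tissue. Choroid plexus markers summed to 69.2, 45.5 and 40.95 TPM in tumor and 92.4, 105 and 149 in adjacent tissue, but to 4943 to 6426 TPM in the *Brca2*-WT;*Trp53*-mut controls and 115 to 1204 in the *Brca2*-mut;*Trp53*-WT controls. Of 10 ependymal markers, 4 were called lower (0 without GB359 and 1 without GB370) and 1 higher (0 without GB359). For these and the immediate early genes, the shares over all tested genes were 17.9% called lower and 4.42% higher. The 15 hindbrain Hox genes were below the filter and summed to 1.45, 2.12 and 2.13 TPM in tumor and 2.48, 4.63 and 3.90 in adjacent tissue. The part of dissection, blood and handling in the other results was not tested.

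**Figure D3:**
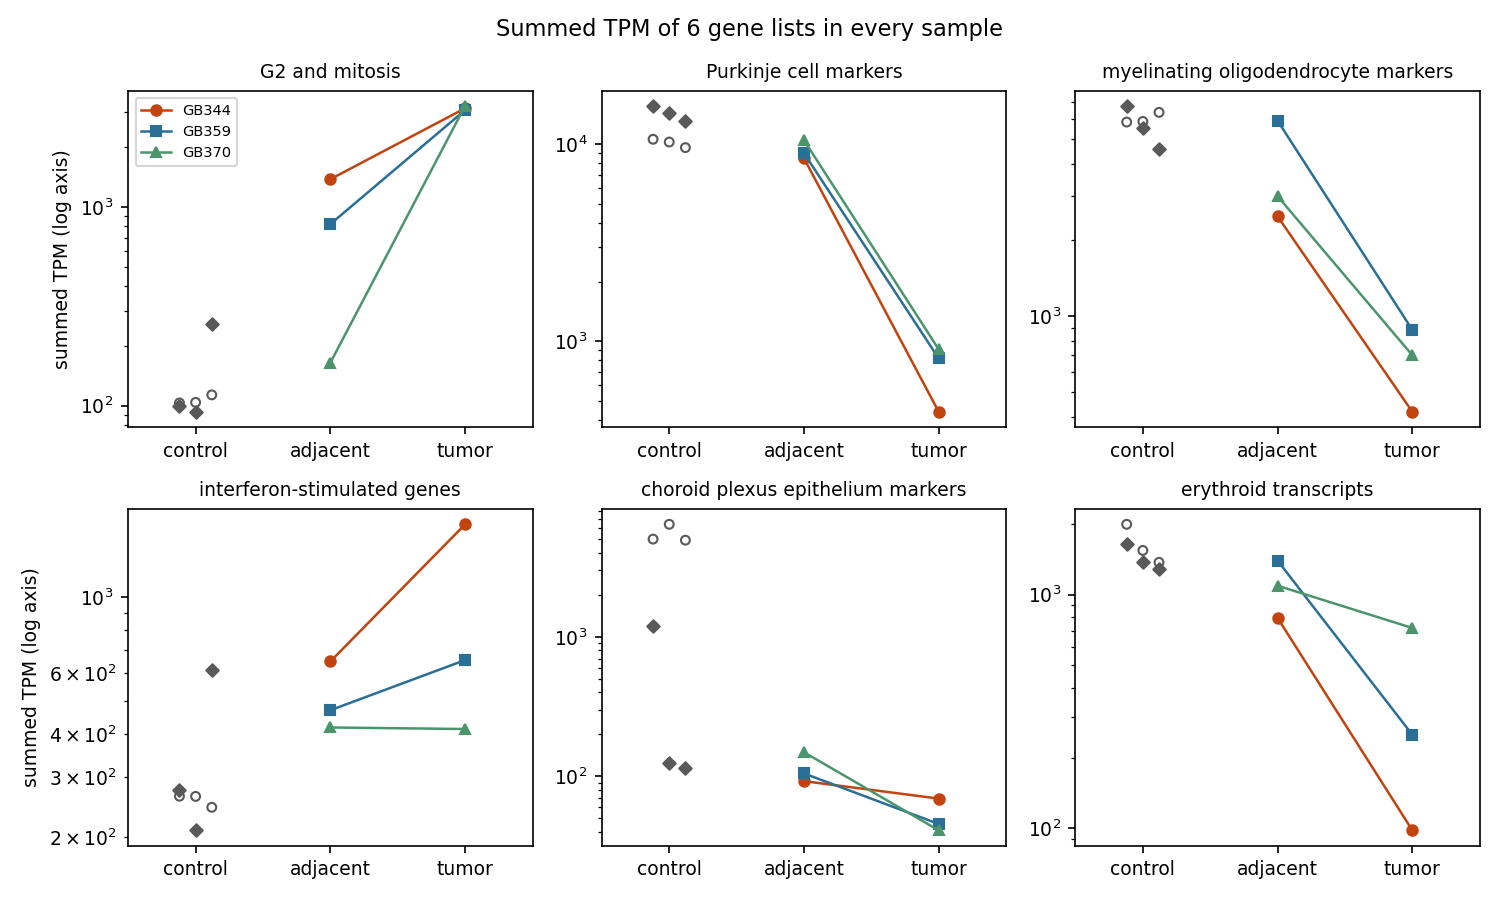
Summed TPM (log axes) of 6 gene lists in the 6 controls (grey, filled diamonds for Brca2-mut;Trp53-WT and open circles for Brca2-WT;Trp53-mut), the adjacent samples and the tumors, with a coloured line joining the samples of a mouse. The mitosis sums of the tumors lie between 3085 and 3241 TPM and the adjacent sums between 164 and 1383, interferon-stimulated genes climb in GB344, and choroid plexus markers are high in the Brca2-WT;Trp53-mut controls.

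Outside the lists, the largest called rises included *Foxa2* and *Fgf8*. *Foxa2*, a factor of the floor plate, was at 35.9, 9.23 and 15.1 TPM in tumor and 2.33, 1.09 and 0.0842 in adjacent tissue (log2 fold change 3.22, SE 0.34, limma adjusted p = 0.00219). *Fgf8*, the growth factor of the midbrain and hindbrain boundary, was at 35.4, 37.98 and 17.9 and 9.21, 2.08 and 0.758 TPM (log2 fold change 2.97, SE 0.39, limma adjusted p = 0.00410). Controls held at most 0.268 and 0.543 TPM of these genes. *Dcpp1*, *Dcpp2* and *Dcpp3* rose by 3.67, 3.38 and 3.19, and as near-identical neighbours they can share reads, so their separate values are uncertain. *Gm7325* was at 20.8, 91.7 and 11.5 TPM in tumor and 1.26, 12.2 and 0.529 beside it (log2 fold change 3.04, SE 0.18, limma adjusted p = 0.000705).

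Among the largest falls outside the marker lists, *Fam107a* was at 4.08, 13.5 and 40.7 TPM in tumor against 560.1, 468 and 746 (log2 fold change -5.32, SE 0.50, limma adjusted p = 0.00156). *Ptgds*, which makes prostaglandin D2 and is abundant in meninges and oligodendrocytes, was at 15.6, 62.9 and 319 and 1311, 2336 and 5006 TPM (log2 fold change -5.16, SE 0.44, limma adjusted p = 0.00123). *Ppp1r1b*, the phosphatase inhibitor DARPP-32, was at 2.34, 7.42 and 10.4 and 216, 222 and 253 TPM (log2 fold change -5.07, SE 0.32, limma adjusted p = 0.000711). *Slc12a5*, the chloride exporter of mature neurons, fell by 4.80 and *Plk5*, a member of the polo-like kinase family, by 4.87 on the log2 scale (limma adjusted p = 0.000877 and 0.00257).

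How far the adjacent tissue lay from tumor-free cerebellum was asked next. Of 16091 genes tested against the 6 controls, 36 (0.224%) were called higher in adjacent tissue and 2 (0.0124%) lower by limma, and 5551 had an unadjusted p under 0.05. All 3 adjacent samples were above all 6 controls for 1877 genes (11.7%) and below them for 1229 (7.64%). The count of 36 rested on single samples. It was 564 without the adjacent sample of GB370, 1 without that of GB344, 11 without that of GB359, 6 without the control GB512 and 0 without the control GB520, and the range over the other controls was 1 to 7. The count of 2 was 0 without any 1 of the controls, 1 without the adjacent sample of GB344, 29 without that of GB359 and 22 without that of GB370.

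The 5 largest of these rises were those of *Igfbpl1*, *Nhlh1*, *Atoh1*, *Insm1* and *Rcor2*. *Igfbpl1*, a binding protein of the developing brain, was at 103, 99.2 and 10.2 TPM in the adjacent samples of GB344, GB359 and GB370 and at 0.171 to 0.537 in controls (log2 fold change 5.17, SE 0.59, limma adjusted p = 0.00706). *Nhlh1* was at 77.4, 45.9 and 9.28 TPM and at most 0.325 (log2 fold change 4.88, SE 0.50, limma adjusted p = 0.00537), and *Atoh1* had a log2 fold change of 4.62, *Insm1* of 4.49 and *Rcor2*, a corepressor, of 3.58. All were lower in the adjacent sample of GB370 than in those of the other mice, and all were higher still in the tumors, where *Igfbpl1* stood at 175, 322 and 247 TPM. Of the 19 progenitor transcription factors tested, *Atoh1*, *Nhlh1* and *Insm1* were the 3 called, and none of the 42 mitosis genes was called by limma, with 40 at an unadjusted p under 0.05. Without the adjacent sample of GB370, 39 of the 42 mitosis genes and 8 progenitor factors were called. The 3 progenitor calls became 0 without the adjacent sample of GB344, 1 without that of GB359, and 0 or 1 without any 1 control. In GB344, GB359 and GB370, 41, 40 and 5 of these 42 genes lay above every control. Over all 16091 tested genes, 6011, 5309 and 4466 did so in these mice. The 5 of 42 in GB370 were thus a smaller share than over all genes.

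The genes called lower in adjacent tissue were *Cdr1*, at 63.2, 112 and 70.5 TPM against 146 to 279.7 in controls (log2 fold change -1.41, SE 0.21, limma adjusted p = 0.00978), and *3110082J24Rik*, at 5.62, 8.26 and 8.10 against 13.5 to 19.1 TPM (log2 fold change -1.03, SE 0.14, limma adjusted p = 0.00883). Both were lower again in the tumors, at 4.38, 13.9 and 8.58 and 1.03, 1.93 and 1.72 TPM. Neuronal lists had no call by limma in this comparison, with 9 of 22 granule neuron markers, 9 of 22 synaptic genes and 12 of 22 Purkinje cell markers at an unadjusted p under 0.05. Their median differences, adjacent minus control, in GB344, GB359 and GB370 were -0.50, -0.07 and -0.07 for granule neuron markers, -0.39, -0.21 and 0.07 for synaptic genes and -0.51, -0.46 and -0.18 for Purkinje cell markers. Below every control lay 17, 7 and 10 of the granule neuron markers, 17, 17 and 5 of the synaptic genes and 16, 14 and 6 of the Purkinje cell markers. Over all 16091 tested genes, 3840, 2934 and 3480 lay below every control in these mice. The synaptic and Purkinje counts of GB370 were near that share. The summed granule neuron level of GB344 was also below the lowest control.

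The TPM of a gene in adjacent tissue can be placed between the mean TPM of the controls, set at 0%, and the tumor of the same mouse, set at 100%. Over the 2651 genes whose mean was higher in tumor than in control by at least 1 on the log2(TPM + 1) scale, the median position was 33.9% in GB344, 23.6% in GB359 and 2.61% in GB370. Over the 3678 genes that were lower by as much, it was 28.7%, 20.1% and 7.45%. Both sets put the mice in the same order, and since tumor samples entered the choice of genes, no test was made. With median-of-ratios scaling the positions were 22.8%, 18.5% and 1.66% for the first set and 39.3%, 28.5% and 12.1% for the second. Zero points at the *Brca2*-WT;*Trp53*-mut controls alone, which leave out GB512, gave 33.6%, 23.7% and 3.03% for the first set.

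In GB344 the lists of the dividing progenitor lay above the medians of both sets. Members of a list entered if tumor and control differed by at least 1 in either direction, so a list can pool rising and falling genes, as the Hedgehog list does with *Shh*. The position was 42.8, 23.2 and 1.27% for 41 genes of G2 and mitosis, with quartiles of 38.9% and 46.6% in GB344, 21.8% and 24.96% in GB359 and 0.721% and 1.78% in GB370. The position was 51.02, 24.7 and 1.72% for 16 Hedgehog genes and 43.9, 20.7 and 2.64% for 14 progenitor factors. Homologous recombination genes were at 42.8, 25.5 and 5.01% and helicase and fork genes at 41.2, 25.1 and 8.19%. In these programs the adjacent tissue of GB344 and GB359 carried part of the tumor's difference, and less of it in GB370.

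Some genes stood apart from the mice's order. *Mycn* was at 10.7, 21.4 and 1.80% in GB344, GB359 and GB370, so that the mouse with the highest Hedgehog median was not the highest here, and the tumor of GB344 held 1133 TPM of it. *Cdkn2a* was at 9.84, 13.7 and 1.13%. The MHC class II genes were near or below the control mean in the adjacent samples, with 3.94, 4.65 and -11.8% for *Cd74* and 2.31, 0.890 and -26.01% for *H2-Aa*. *Ccnd2* was at the other end in GB344, with 87.6, 18.8 and 2.35%.

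Positions of interferon-stimulated genes, which were higher in each tumor by median, ran against the order of the mice, at 21.2, 37.8 and 41.1%. They were at 18.3, 25.8 and 17.1% with the zero point at the *Brca2*-mut;*Trp53*-WT controls alone. A position is a share of the tumor's own difference from controls, and the tumor sums of this list were 1629.6, 656 and 413 TPM. The adjacent tissue itself kept the order of the mice, with median differences from controls of 1.23, 0.70 and 0.52 on the log2(TPM + 1) scale. Among falling lists the order of the mice was less uniform. Positions were 34.2, 5.69 and 18.2% for granule neuron markers, 31.8, 30.2 and 16.2% for Purkinje cell markers and 27.9, 18.4 and -3.46% for synaptic genes. The zero point mattered for these. Purkinje positions were 17.6, 15.7 and -2.96% from the *Brca2*-WT;*Trp53*-mut controls alone and 41.3, 40.6 and 28.1% from the *Brca2*-mut;*Trp53*-WT controls alone, and the granule neuron position in GB359 was 12.7% and 0.216% from the same controls. Myelin genes were at 62.6, 8.17 and 55.8%, with GB370 as far from the controls as GB344, although its mitosis genes were at 1.27%. The share of tumor cells in the adjacent samples was not measured. Tumor cells among the adjacent tissue, a response of the cerebellum itself and the site of dissection cannot be told apart.

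**Figure D4:**
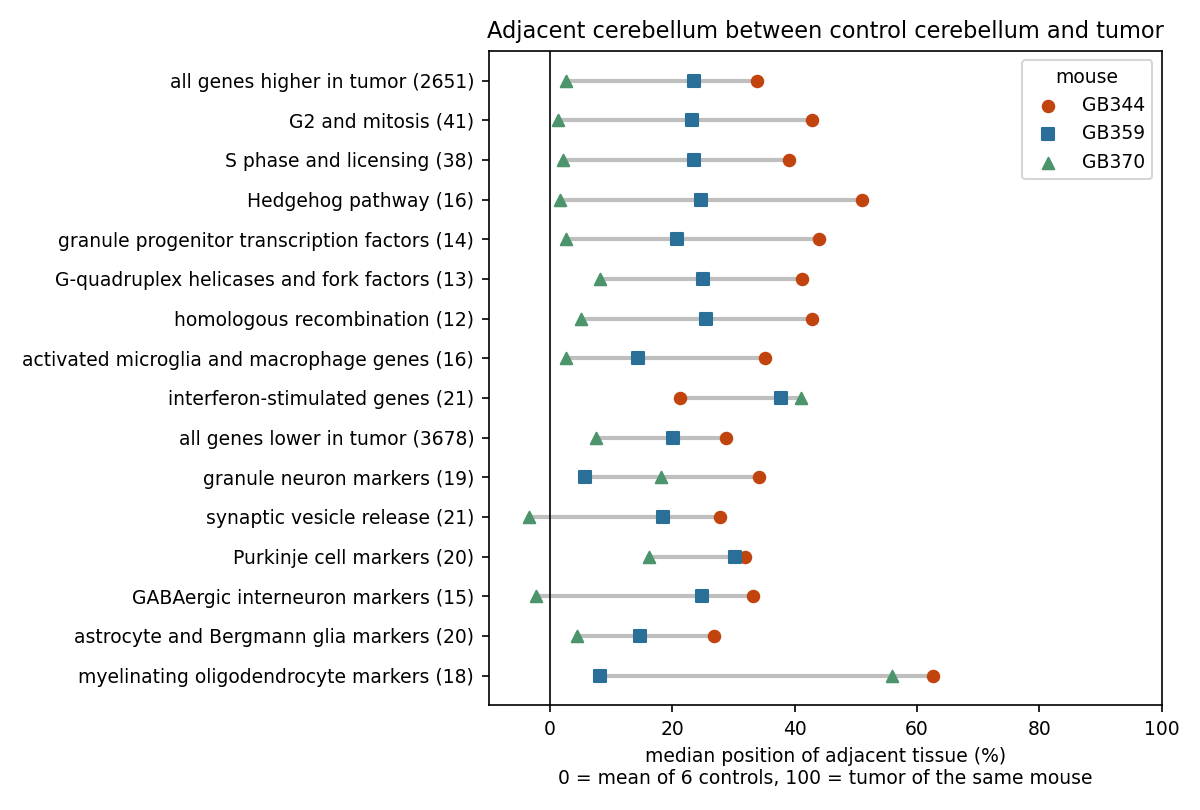
Median position (%) of adjacent tissue for 16 sets of genes (rows, with the number of genes), where 0 is the mean of the 6 controls and 100 the tumor of the same mouse, with 1 point per mouse and a bar from the lowest to the highest mouse. GB344 lies highest and GB370 lowest in the 8 sets plotted above the interferon-stimulated genes. The latter run the other way as a share of each mouse's own tumor, and the myelin set puts GB370 at 55.8% and GB359 at 8.17%.

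Some genes were highest in the adjacent tissue itself. *Map3k6*, a stress kinase, was the sole gene called in both comparisons and above both the tumor of the same mouse and all controls, at 10.7, 7.92 and 11.5 TPM in adjacent tissue, 2.002, 2.48 and 4.26 in tumor and 1.70 to 4.06 in controls (log2 fold change -1.52 for tumor against adjacent tissue, limma adjusted p = 0.00486, and 1.73 for adjacent tissue against controls, limma adjusted p = 0.00814). Of the 11 called genes whose fold changes against controls are given, *Map3k6* among them, none was called without the adjacent sample of GB344. The same held without the control GB361, GB508, GB519 or GB520. *Cdkn1a* had the same shape as *Map3k6*, with a difference of 1.14 from controls that missed the threshold (limma adjusted p = 0.0116). *Fbln5*, an elastic fibre protein counted among reactive astrocyte genes, was at 15.8, 27.9 and 20.3 TPM in adjacent tissue against 0.835, 1.07 and 1.39 in tumor and 6.26 to 12.4 in controls (log2 fold change 1.32, SE 0.22, limma adjusted p = 0.0115 against controls).

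*Gfap*, the intermediate filament of reactive astrocytes, was at 314, 285 and 213 TPM in adjacent tissue, 161, 193 and 79.3 in tumor and 117 to 181 in controls, and neither difference was called (-0.98, limma adjusted p = 0.0124, for tumor against adjacent tissue, and 0.78, limma adjusted p = 0.0156, against controls). Of 23 reactive astrocyte genes tested within the mouse, *Emp1* and *Ptx3* were called higher in tumor and *Hspb1* and *Fbln5* lower, and the count of higher calls was 0 without GB344 or GB359. On 23 genes neither count stood clear of the 4.42% called higher and 17.9% called lower over all tested genes. Against controls, *Clcf1*, a cytokine of the interleukin-6 family, was the 1 gene of that list called higher (log2 fold change 1.09, SE 0.14, limma adjusted p = 0.00883), and the collagens *Col3a1* and *Col4a2* were the 2 called of the mural and fibroblast list (1.11 and 1.001, limma adjusted p = 0.00883 and 0.00537). Without the adjacent sample of GB344 none of these 3 calls held, and without any 1 control at most 1 did.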

How the data were processed

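RNA of 12 mouse samples was sequenced by the authors as poly(A) libraries (NEB Ultra II kit, 75-base reads) and quantified with Salmon 0.8.1 against the mm10 knownGene transcripts and tximport. The deposited values are TPM per gene for 24091 genes, with no counts, so depth and counting error are unknown. Of these genes, 24045 matched RefSeq by Entrez identifier.

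From the TPM, log2(TPM + 1) was fitted with limma 3.58.1 (R 4.3.3, eBayes with an intensity trend) for genes at 1 TPM or more in at least 3 samples. Tumor was compared with adjacent cerebellum in the 6 paired samples with the mouse as a block, and adjacent cerebellum with the 6 controls. P-values were adjusted by Benjamini-Hochberg over all tested genes, and genes were called where that p was below 0.01 and the change was 1 or more on the log2 scale, up or down. The mouse number pairs the samples, since both come from the same animal, and deviations of same-mouse samples correlated at r = 0.249, 0.176 and 0.152. Replicates are separate mice. The paired fit left 2 residual degrees of freedom. The fits were tested on simulated data.

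The position of the adjacent tissue, list medians and sums are descriptions. The members and the 29 gene lists were chosen with earlier results of these data known. Genes named in the text are anchors of the lists, the 3 largest called members of a list, the 10 largest called rises and falls in the paired fit with 1 sign in all mice, the 5 largest in the second fit, and genes called in both with the adjacent value above or below both others. Other genes were named after their values were seen, and some genes of the lists are not reported here. Promoters came from RefSeq (GRCm38.p6). Alternatives covered the block, each sample left out, the control genotype, the pseudocount, filters, scalings, the trend, all 12 samples and the threshold.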

Additional observations from a re-analysis of the deposited data

Results flagged for a closer look

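Control libraries stood apart in the summed TPM of 6 of the 29 gene lists, by a gap test among the 6 controls that chance passes in about 1 in 20 groups. GB512 was the highest control for G2 and mitosis (257 TPM), homeostatic microglia markers (538 TPM), interferon-stimulated genes (613 TPM) and hindbrain Hox genes (13.9 TPM). GB508 was the lowest for homologous recombination (113 TPM) and the p53 pathway (639 TPM). The part of these libraries in the adjacent against control comparison was not tested beyond leaving each out. Without GB512, 6 genes were called higher in adjacent tissue and 0 lower by limma, and without GB508 4 and 0.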

How the results depend on the processing

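The counts of calls moved with the mice. Leaving out 1 mouse gave 33 to 559 genes higher in tumor and 1196 to 2157 lower, the lowest of both without GB359 (and 368 and 1882 without GB344). A fit with 2 mice has fewer samples. Without the replicate block, 755 were higher and 2852 lower, so the pairing moved neither count by over 1.5 times. The higher count was 219 with no filter, 1196 with median-of-ratios scaling, 1545 with quantile normalization and 1355 in the fit of all 12 samples. At an adjusted p under 0.05 with no minimum change, 2939 were higher and 5109 lower. Causes were not tested.

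For adjacent tissue against controls, leaving out 1 sample gave 0 to 564 genes higher and 0 to 29 lower. With the *Brca2*-WT;*Trp53*-mut controls alone 7 were higher and 22 lower, and with the *Brca2*-mut;*Trp53*-WT controls alone 2 were higher. No filter gave 4 and 0, median-of-ratios scaling 7 lower, quantile normalization 18 lower, leaving out *Mir6236* 55 and 5, no trend 10 and 0, all 12 samples 0 lower and the looser threshold 1627 and 897.

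Of the named fold changes within the mouse, those of 3 genes turned in direction in some setting, none of them called. With 1 mouse left out, *Otx2* ran from -2.31 to 0.23 (without GB344), *Zic1* from -0.25 to 0.063 (without GB344) and *Neurod1* from -0.15 (without GB359; -0.11 without GB370) to 0.32. *Zic1* was 0.061 with median-of-ratios scaling. Depth cannot be weighed, as TPM keeps none.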

Other observations

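Genes of fluid and barrier tissue, outside the main results, also differed within the mouse. *Enpp2*, which makes lysophosphatidic acid, was at 10.01, 15.8 and 13.7 TPM in tumor and 47.2, 72.4 and 72.2 in adjacent tissue (log2 fold change -2.19, SE 0.13, limma adjusted p = 0.000705), while *Aqp1*, a water channel, was at 2.26, 1.72 and 2.57 and 0.458, 0.600 and 0.397 TPM (log2 fold change 1.09, SE 0.19, limma adjusted p = 0.00892). *Ttr*, the thyroid hormone carrier of the choroid plexus, was at 3.44, 7.52 and 9.15 TPM in tumor and 15.4, 7.71 and 50.6 in adjacent tissue, and ranged from 9.60 to 5039 TPM among controls. *Mia* was called higher in tumor, at 48.6, 45.2 and 54.4 against 18.8, 11.98 and 9 TPM (log2 fold change 1.88, SE 0.25, limma adjusted p = 0.00405).

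Among stress and matrix genes, *Emp1*, a membrane protein of reactive astrocytes, was at 26.5, 16.7 and 18.4 TPM in tumor and 11.7, 6.14 and 3.21 beside it (log2 fold change 1.54, SE 0.26, limma adjusted p = 0.00810). *Ptx3*, a soluble pattern recognition protein, was at 11.97, 6.82 and 3.14 and 2.64, 2.18 and 0.642 TPM (log2 fold change 1.49, SE 0.20, limma adjusted p = 0.00403). *Hspb1*, a small heat shock protein, went the other way, at 11.7, 10.1 and 16.5 against 46.8, 24.8 and 62 TPM (log2 fold change -1.66, SE 0.19, limma adjusted p = 0.00284). *Nr4a1*, an immediate early transcription factor, was lower in each tumor, at 5.63, 8.24 and 10.04 against 23.2, 34.05 and 34.04 TPM (log2 fold change -1.82, SE 0.15, limma adjusted p = 0.00118). *Hbb-bs*, adult beta globin, was at 36.9, 81.6 and 243 TPM in tumor and 278, 441 and 339 in adjacent tissue, with the tumor of GB370 closest to its adjacent sample (log2 fold change -1.93, limma adjusted p = 0.0242).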
